A study of Rattus norvegicus with 8 samples.

Results

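Fos, Fosb, Jun, Junb, Egr1, Ier2, Dusp1, Nr4a1, Myc and Btg2 are immediate early response genes, and their transcripts were followed in the livers of rats on 2 diets. The animals were males of the outbred Sprague Dawley strain. Members were all non-control probes of the array whose gene name equals 1 of these 10 names. The rule found 18 probes of 9 genes among 46883 probes and 25512 gene names. No probe carries the name Fosb. A probe named LOC100360880, which the RefSeq gene table (GRCr8) lists as Fosb, is given separately. Of the 18 probes, 16 from all 9 genes passed the filter on dim probes and were tested, and the other 2 were further probes of Fos and Egr1.

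High-fat arrays are 4 samples from animals on a diet labelled as 60% high-fat, and control arrays are 4 samples from animals on normal diet, in both cases for 12 weeks. The labels give a weight of 180 to 200 g for both groups, no age, and do not say outright that every array is its own animal. The p-values therefore cover the spread among these 8 arrays, part of which may be technical. Per the labels the livers were snap frozen after excision, and the time from death to freezing is not given in the sources used here. The title names factors that go with insulin resistance as the aim. RNA was labelled with Cy3 and hybridised to 1-colour Agilent arrays with probes of 60 bases. All values below are normalized log2 intensities, in which 0 is the 75th percentile of an array, taken over those probes that every array detected well above background, and 1 unit is a doubling. Levels of different probes are not on a common scale, so each probe is compared only with itself.

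Immediate early genes are transcribed soon after a stimulus reaches a cell, without new protein being made first, because the factors that switch them on are already present. Serum response factor, bound at CArG boxes, and CREB, bound at cyclic AMP response elements, are the best known of these. Most of the transcripts are unstable, so that a pulse fades quickly. In the liver they respond to growth factors, hormones, partial hepatectomy, loss of blood flow and the handling of tissue.

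The RefSeq promoter table holds 7 of the 10 genes (Fosb, Nr4a1, Dusp1, Btg2, Egr1, Junb and Ier2). The 4 stretches below show the elements through which these genes are known to be read, as the 250 bases before the gene's start on GRCr8, 5′ to 3′ on the gene's strand. Capitals mark TGACGTCA, its left part TGACG on either strand, and CArG boxes. Dusp1 lies at chr10:17184603-17184852 on the plus strand, Btg2 at chr13:48087691-48087940 on the minus strand, Ier2 at chr19:40399123-40399372 on the plus strand and Egr1 at chr18:26736828-26737077 on the plus strand.
Dusp1: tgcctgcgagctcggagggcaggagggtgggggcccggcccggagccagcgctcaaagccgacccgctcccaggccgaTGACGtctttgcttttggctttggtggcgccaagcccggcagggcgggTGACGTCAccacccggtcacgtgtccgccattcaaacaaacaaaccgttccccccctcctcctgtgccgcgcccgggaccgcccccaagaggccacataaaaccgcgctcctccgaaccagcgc
Btg2: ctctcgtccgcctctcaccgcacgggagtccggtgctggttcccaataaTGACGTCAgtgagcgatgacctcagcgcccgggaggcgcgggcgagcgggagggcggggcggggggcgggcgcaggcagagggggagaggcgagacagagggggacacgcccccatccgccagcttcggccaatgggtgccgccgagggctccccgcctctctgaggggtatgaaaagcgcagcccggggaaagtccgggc
Ier2: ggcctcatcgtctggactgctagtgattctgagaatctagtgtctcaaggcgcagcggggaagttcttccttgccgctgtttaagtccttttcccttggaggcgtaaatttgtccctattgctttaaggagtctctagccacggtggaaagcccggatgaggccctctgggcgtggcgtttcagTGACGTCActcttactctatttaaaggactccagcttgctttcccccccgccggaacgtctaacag
Egr1: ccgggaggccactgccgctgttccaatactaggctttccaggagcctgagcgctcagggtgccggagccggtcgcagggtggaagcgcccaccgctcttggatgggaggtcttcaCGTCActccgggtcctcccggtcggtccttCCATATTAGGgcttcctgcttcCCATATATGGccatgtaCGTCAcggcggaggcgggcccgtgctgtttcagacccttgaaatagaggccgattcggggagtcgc

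The letters TGACGTCA, the full cyclic AMP response element, stood in 3 of the 7 promoters, against 1.59% of 33469 promoters of the same length. TGACG on either strand, which each full element holds as well, stood in 6 of 7, against 18.2% of all. The CArG box stood in 1 of 7, Egr1, where there were 2, against 501 of the 33469 promoters. TGANTCA, the AP-1 motif, stood in 0 of 7, against 6.34%. GGGCGG stood in 3 of 7 (30.5% of all), TATAAA in 2 (12.9%), CACGTG in 1 (5.59%) and GCGNGGGCG in 2 (4.29%), each searched on both strands. A match of letters is a description and no binding was measured here.

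The 3 probes printed next read Fos, Jun and Dusp1, which are among the members with the widest spread between arrays. Each was 60 bases long and had a single reading frame without a stop codon. The Jun probe lies at chr5:115359410-115359469 on the minus strand of rn4. The Dusp1 probe spans 320 bases, chr10:16944342-16944661 on the plus strand of rn4, so its bases are not contiguous there. The files give no position for the Fos probe.
Fos: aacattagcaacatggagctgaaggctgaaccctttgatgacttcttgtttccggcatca
Jun: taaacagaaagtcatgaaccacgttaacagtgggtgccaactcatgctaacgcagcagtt
Dusp1: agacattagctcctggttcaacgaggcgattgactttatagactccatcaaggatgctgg

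No member differed between the diets past the threshold, while the members varied widely from array to array within each diet. By limma, with Benjamini-Hochberg adjustment over 31535 tested probes, 0 of 9 members had an adjusted p under 0.05, against 0.877% of 18587 tested genes (163 genes, with 0.350% higher and 0.527% lower on the high-fat diet). Of their 16 tested probes 0 were called, against 0.907% of all tested probes. A gene stood for its tested probe with the highest mean. At an unadjusted p under 0.05 there was 1 member, Dusp1, against 15.6% of all tested genes. The groups' values overlapped in all 9 members, against 11.1% of tested genes without overlap. The median log2 change of the members was 0.27, with 6 above 0 and 3 below, beside a median of 0.00404 over all tested genes.

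**Figure D1:**
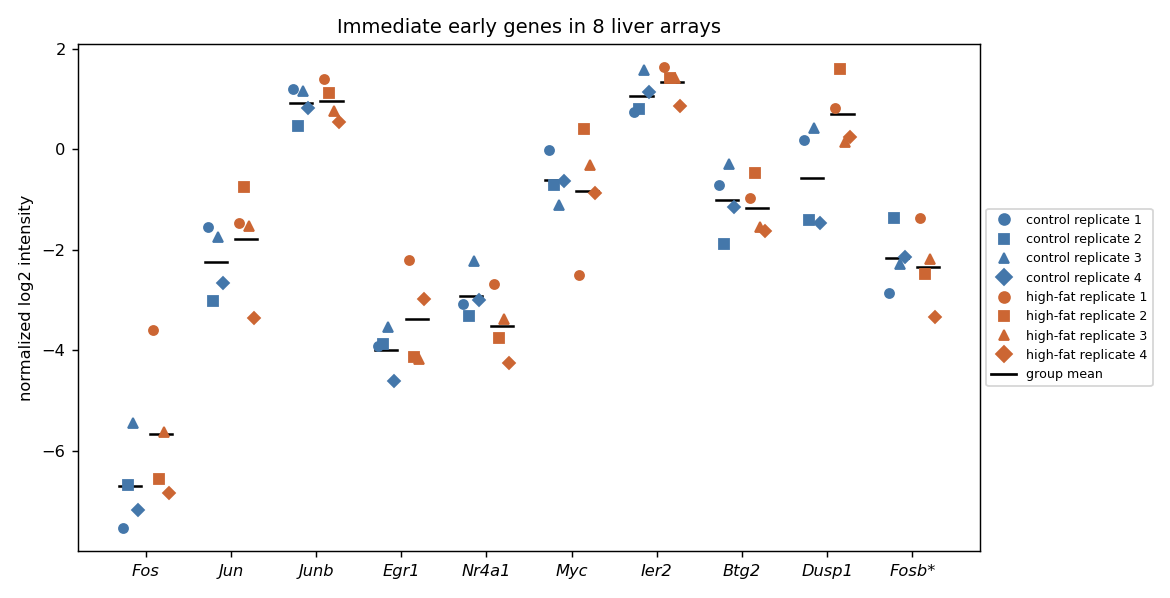
Normalized log2 intensity (vertical axis) of 9 immediate early genes and of the probe that RefSeq assigns to Fosb (Fosb*), with control arrays in blue, high-fat arrays in orange, a marker shape for each replicate number and a line at each group mean of 4 arrays. In every gene the points of both diets overlap, with high-fat replicate 1 at the top for Fos and at the bottom for Myc. Heights of different genes are not comparable.

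Dusp1 encodes a phosphatase that switches off MAP kinases. Its intensities were 0.82, 1.60, 0.15 and 0.25 in high-fat replicates 1 to 4 and 0.19, -1.42, 0.42 and -1.47 in control replicates 1 to 4. Control replicates 2 and 4 were low, and control replicates 1 and 3 lay among the high-fat arrays. The means were 0.70 ± 0.66 on the high-fat diet and -0.57 ± 1.01 in control (SD, n = 4 per group), and limma put the log2 change at 1.27, 95% interval 0.09 to 2.45 (adjusted p = 0.289 by limma), or 2.42-fold. The second probe, printed above, read -0.93, -1.32, -2.54 and -2.43 in high-fat and -2.85, -4.22, -2.09 and -3.54 in control replicates 1 to 4. Again control replicates 2 and 4 were the lowest arrays, and the groups overlapped. That probe gave a log2 change of 1.37, from 0.18 to 2.55 (adjusted p = 0.262 by limma). Leaving out 1 array at a time moved the change of Dusp1 between 0.97 and 1.60, with a smallest adjusted p of 0.270 by limma. Among all members the smallest adjusted p in these fits was 0.228 by limma, for Nr4a1 without high-fat replicate 1.

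**Figure D2:**
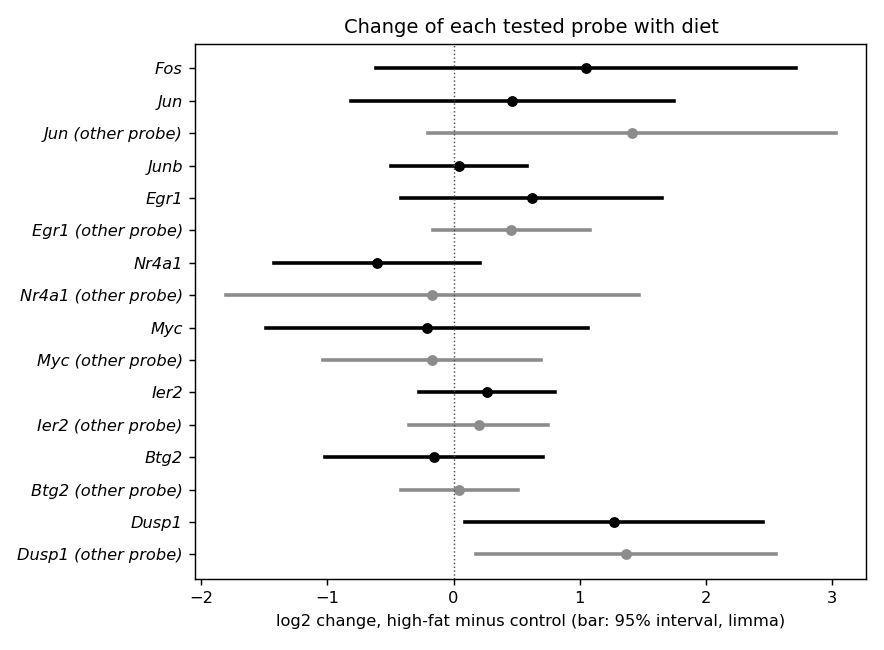
Log2 change, high-fat minus control (horizontal axis), of the 16 tested probes with 95% intervals from limma, black for the probe that stands for a gene and grey for its other probe. The intervals of both Dusp1 probes lie above 0 before adjustment, and those of the other 14 probes include 0.

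The AP-1 components came next. AP-1 is a transcription factor made of a Fos and a Jun protein. Fos read -3.60, -6.55, -5.63 and -6.85 in high-fat replicates 1 to 4 and -7.53, -6.67, -5.44 and -7.17 in control replicates 1 to 4, all well above background but control replicate 1. The highest array was high-fat replicate 1, and the next 2 were control replicate 3 and high-fat replicate 3. The log2 change was 1.05, with an interval from -0.62 to 2.71 (adjusted p = 0.555 by limma). It was 0.36 without high-fat replicate 1 and 0.26 after normexp background correction, which raises dim signals. The second Fos probe was well above background on 2 high-fat arrays and 1 control array, and was not tested. It read -5.49 in high-fat replicate 1 and -6.89 in control replicate 3, its highest arrays, and -9.58 to -7.81 in the other 6.

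Jun read -1.47, -0.76, -1.53 and -3.37 in high-fat replicates 1 to 4 and -1.55, -3.02, -1.75 and -2.67 in control replicates 1 to 4. High-fat replicate 4 and control replicates 2 and 4 were low, and the remaining arrays lay within 1 unit of each other. The log2 change was 0.47, from -0.81 to 1.75 (adjusted p = 0.754 by limma), and leaving out 1 array moved it between 0.13, without high-fat replicate 2, and 0.99, without high-fat replicate 4. The second Jun probe read -0.96, -0.28, -0.82 and -3.29 in high-fat and -1.90, -3.84, -1.88 and -3.38 in control, with the same 3 arrays low. By that probe the log2 change was 1.41, from -0.20 to 3.03 (adjusted p = 0.391 by limma), so that the probes of Jun differed in the size of the change by more than 1.5 times, and neither passed.

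Junb, a Jun protein that often opposes Jun in mouse and human cells, had 1 probe, with 0.54 to 1.39 on the high-fat diet and 0.47 to 1.20 in control. Its log2 change was 0.04, from -0.49 to 0.58 (adjusted p = 0.959 by limma). Fosb, a close relative of Fos, was read by the probe named LOC100360880 at -1.37, -2.49, -2.19 and -3.33 in high-fat and -2.86, -1.38, -2.28 and -2.14 in control replicates 1 to 4. High-fat replicate 1 and control replicate 2 were the highest, and the log2 change was -0.18, from -1.18 to 0.82 (adjusted p = 0.893 by limma). A second probe of that name did not pass the filter on dim probes and was not tested.

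Egr1 and Nr4a1 are DNA-binding regulators, the first a zinc finger protein and the second a nuclear receptor without a known hormone. Egr1 read -2.20, -4.14, -4.17 and -2.98 in high-fat and -3.92, -3.88, -3.54 and -4.61 in control replicates 1 to 4. High-fat replicates 1 and 4 stood above all control arrays, and high-fat replicates 2 and 3 lay among them. The log2 change was 0.62, from -0.42 to 1.65 (adjusted p = 0.579 by limma), and 0.23 without high-fat replicate 1. A second probe had a log2 change of 0.46 (adjusted p = 0.483 by limma) and 0.05 after normexp. It was well above background on 3 high-fat arrays and 1 control array, and its highest value, in high-fat replicate 1, was not among these. The third was well above background on 1 array.

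Nr4a1 read -2.68, -3.75, -3.38 and -4.26 in high-fat and -3.08, -3.33, -2.23 and -3.01 in control replicates 1 to 4. The highest array was control replicate 3, followed by high-fat replicate 1, and the lowest high-fat replicate 4. The log2 change was -0.60, from -1.42 to 0.21 (adjusted p = 0.479 by limma). The second probe, well above background on 3 high-fat and 2 control arrays, gave -0.17 (adjusted p = 0.945 by limma).

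Myc encodes a transcription factor of growth and biosynthesis. Its intensities were -2.50, 0.39, -0.32 and -0.87 in high-fat and -0.02, -0.71, -1.10 and -0.63 in control replicates 1 to 4. High-fat replicate 1, where Fos and Egr1 were highest, was the lowest array for Myc. The log2 change was -0.21, from -1.48 to 1.06 (adjusted p = 0.903 by limma), and 0.35 without high-fat replicate 1, which turns its direction. The second Myc probe read -7.29 on the same array, where it was not well above background, nor was it on control replicate 1, and had a log2 change of -0.17 (adjusted p = 0.881 by limma).

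Btg2 slows cell division and is also a target of p53, and Ier2 encodes a nuclear protein of early growth response. Btg2 read -0.98, -0.48, -1.55 and -1.63 in high-fat and -0.70, -1.89, -0.29 and -1.16 in control replicates 1 to 4, with control replicates 3 and 2 as the extremes. The log2 change was -0.15, from -1.01 to 0.71 (adjusted p = 0.896 by limma). The other probe gave 0.05 (adjusted p = 0.947 by limma) and was lowest on control replicate 1, at -2.31, an array on which the first probe was among the highest. Ier2 ranged from 0.85 to 1.63 on the high-fat diet and from 0.75 to 1.57 in control, with log2 changes of 0.27 and 0.20 by its 2 probes (adjusted p = 0.655 and adjusted p = 0.758 by limma).

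**Figure D3:**
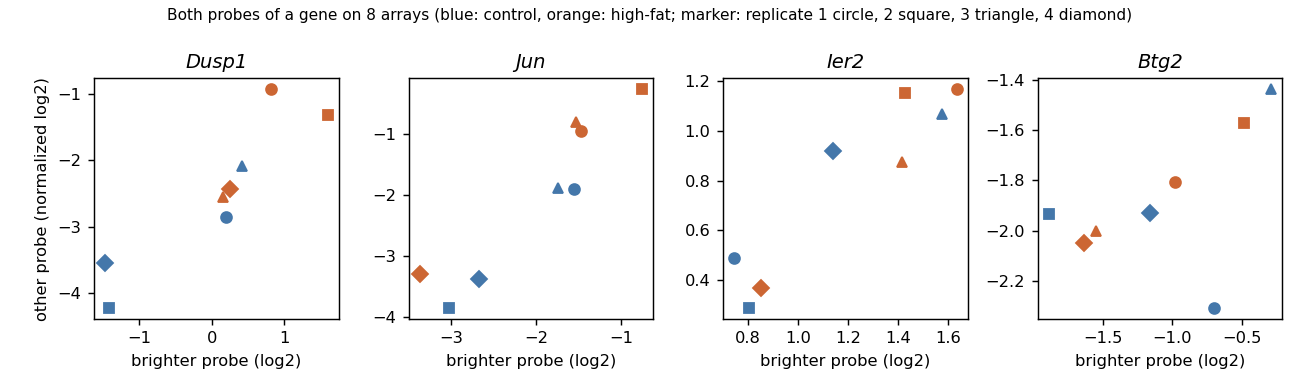
Normalized log2 intensity of both probes of Dusp1, Jun, Ier2 and Btg2 on the 8 arrays, with the probe that stands for the gene on the horizontal axis. For Dusp1 and Jun the low arrays are the same by both probes, while for Btg2 control replicate 1 (blue circle) is high by the first probe and lowest by the other.

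The spread between arrays of the same diet was wide. The within-group SD, pooled over both diets, had a median of 0.75 over the 9 members and 0.28 over all tested genes. Each of the 9 exceeded that median, as 50% of all genes do by definition, and 5 were among the tenth with the widest spread. Fos had an SD of 1.22, Jun 0.93, Myc 0.93, Dusp1 0.86 and Egr1 0.75. Only 2.47% of tested genes had a wider spread than Fos, and 9.88% than Egr1. Junb and Ier2, at 0.36 each, lay nearest to the median, with 35.6% and 35.4% of genes wider.

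Dim probes varied more, with a median SD of 0.48 in the dimmest and 0.19 in the brightest of 4 equal bins of mean level, so each member was also set beside the genes of its bin. Jun, Myc and Dusp1, in the upper 2 bins, were exceeded by 1.27%, 1.33% and 1.29% of the genes there. Fos, in the lowest bin, was exceeded by 7.08%. The shares were 4.78% for Btg2, 9.51% for Egr1, 13.0% for Ier2, 13.1% for Junb and 16.0% for Nr4a1. Repeat spots of a probe on 1 array differed far less than arrays did. The SD between spots was 0.0692 for Jun, 0.0595 for Btg2, 0.124 for both Myc and Nr4a1 and 0.106 for the second Dusp1 probe, which is 4.67 to 13.5 times below the SD between arrays of the same probe. Repeat spots share 1 labelling and 1 hybridisation, so that the spread of those steps is part of the difference between arrays. For the dim second probes of Fos and Egr1 the SD between spots was 0.483 and 0.304, and the ratios were 3.08 and 1.41.

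**Figure D4:**
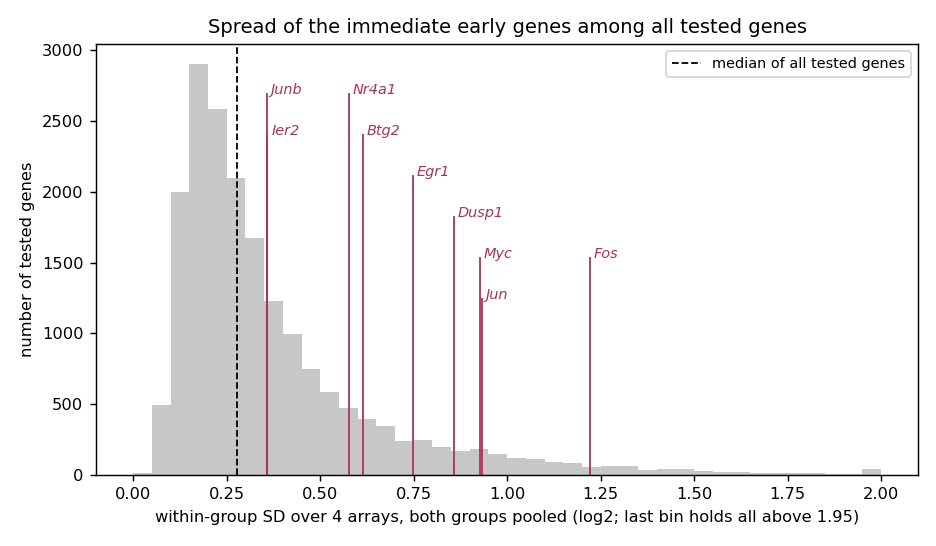
Histogram of the within-group SD of log2 intensity (horizontal axis) over 18587 tested genes (vertical axis, number of genes), with a line for each of the 9 members and a dashed line at the median of all genes, 0.28. All 9 lie to the right of the dashed line, from Junb and Ier2 at 0.36 to Fos at 1.22.

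Members did not all vary on the same arrays. High-fat replicate 1 was the highest of its group for 5 members (Fos, Egr1, Nr4a1, Junb and Ier2) and the lowest for Myc. High-fat replicate 2 was the highest of its group for Jun, Myc, Btg2 and Dusp1, and high-fat replicate 4 the lowest for 6 members. Among controls, replicate 3 was the highest for 6 members and replicate 2 the lowest for 4, while replicate 4 was above the control mean for 1. The mean over the 9 members was -1.07, -1.24, -1.58 and -2.03 in high-fat replicates 1 to 4 and -1.63, -2.18, -1.25 and -2.08 in control replicates 1 to 4, so that the groups overlapped.

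**Figure D5:**
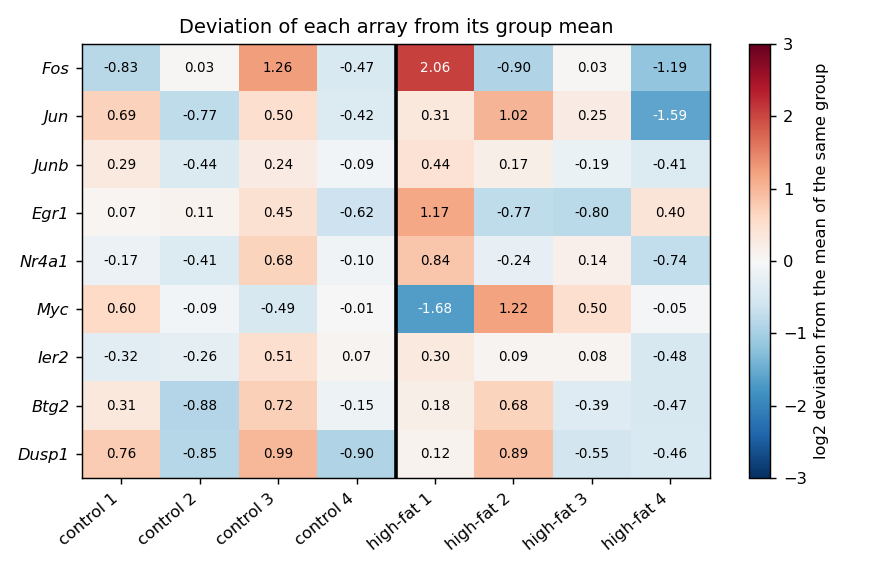
Deviation of each array from the mean of its own group (log2, colour and printed value) for 9 genes in rows and 8 arrays in columns, with control arrays left of the line. High-fat replicate 1 ranges from 2.06 for Fos to -1.68 for Myc, and high-fat replicate 4 is below its group mean for all genes but Egr1.

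All 8 arrays lay on 1 slide and were scanned on 1 day, and each of the 2 slide rows held 2 high-fat and 2 control arrays. Replicates 1 and 2 of both groups lay in the first row, and replicates 3 and 4 in the second. The first row held the dimmest array of each group, so row, replicate number and dimness cannot be told apart. Within the first row the median log2 change of the members was 0.73, and within the second it was -0.22. In that order the changes were 2.03 and 0.07 for Fos, 1.82 and 0.73 for Dusp1, 1.17 and -0.24 for Jun, and 0.56 and -0.87 for Btg2. They were 0.73 and 0.51 for Egr1, 0.75 and -0.22 for Ier2, 0.42 and -0.34 for Junb, and -0.01 and -1.20 for Nr4a1. Myc went the other way, with -0.69 in the first row and 0.27 in the second. The difference between rows was tested by limma over 31534 probes. The difference passed for 0 of the 16 member probes (lowest adjusted p = 0.765) and for 0 probes in all. Over all probes 1823 had an unadjusted p under 0.05. Both Ier2 probes (unadjusted p = 0.0347 and 0.00949 by limma) and the second Dusp1 probe (unadjusted p = 0.0408 by limma) were among these. The test between rows was added after the values were seen. The share of probes well above background was 56.3%, 71.4%, 70.6% and 66.9% in high-fat replicates 1 to 4 and 50.4%, 66.2%, 64.3% and 71.9% in control replicates 1 to 4. High-fat replicate 1 is thus the dimmest of its group, control replicate 1 was dimmer still and did not show Fos well above background, and the part of dimness in these values was not tested. Without both arrays 0 members passed, their median log2 change was 0.09 and their median SD 0.62, against 0.24 over all genes.

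The 8 hepatocyte markers, among them albumin, were all tested and their mean lay between 4.52 and 4.84 in control and 4.54 and 4.90 in high-fat arrays, with 0 called. Bulk tissue cannot tell fewer cells of a type from less RNA per cell. Of the 11 leukocyte and Kupffer cell markers, all were tested, the T cell gene Cd3g fell (log2 change -1.44, adjusted p = 0.042 by limma), and the list mean was -1.31 to -0.89 in control and -1.85 to -1.22 in high-fat arrays. In this list 9 log2 changes were below 0 and 2 above. Groups did not overlap for 4 of the 11, against 11.1% of tested genes. Among these were Marco (-2.38) and Clec4f (-0.60), which were not called. Of 7 erythroid markers 6 were tested and 0 called, with list means of -1.82 to -0.77 in control and -0.59 to -0.27 in high-fat arrays. Of 9 endothelial and stellate cell markers, all tested, 4 had a log2 change above 0 and 5 below. The 1 called was the stellate cell gene Reln, which rose (log2 change 1.34, adjusted p = 0.015 by limma). The other stellate cell genes Des, Acta2 and Pdgfrb had -0.70, -0.52 and -0.01 and were not called. The endothelial genes Lyve1, Stab2, Kdr, Cdh5 and Pecam1 had 0.96, 0.60, 0.15, -0.18 and -0.37 and were not called either. Means of this list were -1.91 to -1.66 in control and -1.71 to -1.51 in high-fat arrays. Over all tested genes 0.877% were called in either direction. Arrays have no true zero, so these values cannot show that a marker was absent. The part of the markers in the spread of the members was not tested.

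A wider list of 48 other immediate early genes had 43 tested members, of which 0 passed in either direction by limma, 10 had an unadjusted p under 0.05 and 8 had no overlap between groups. Their median log2 change was 0.04, with 23 above 0 and 20 below. Their median within-group SD was 0.40, against 0.28 over all tested genes. Over all tested genes 0.877% passed, 15.6% had an unadjusted p under 0.05 and 11.1% had no overlap. The 4 with the smallest p had changes of both signs. Ier3, a stress-induced survival factor, read 1.85, 2.88, 2.50 and 2.10 in high-fat and 1.55, 1.10, 1.12 and 1.16 in control replicates 1 to 4, without overlap, with a log2 change of 1.10 (adjusted p = 0.076 by limma). Klf4, a zinc finger factor of endothelium and epithelium, read -2.23, -1.82, -2.23 and -2.03 in high-fat and -0.84, -1.63, -0.63 and -1.01 in control, a log2 change of -1.05 (adjusted p = 0.075 by limma).

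Arc, known as an immediate early gene of neurons, had a log2 change of 1.17 (adjusted p = 0.062 by limma) and Egr2, a relative of Egr1, -1.32 (adjusted p = 0.069 by limma). Both are dim here. Arc was well above background on 4 high-fat and 2 control arrays, and Egr2 on 2 high-fat and 3 control arrays. After normexp the changes were 0.24 and -0.42. Sgk1, a kinase induced by serum and glucocorticoids, was chosen after its values were seen, for the widest spread of the list. It read 1.49, -1.21, -0.29 and -1.51 in high-fat and -1.46, -1.59, 0.99 and -1.37 in control replicates 1 to 4. High-fat replicate 1 and control replicate 3 were its highest arrays, which are also the highest arrays of the tested Fos probe and of Nr4a1.

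Of 24 upstream kinases and transcription factors, all tested, 0 passed by limma, against 0.877% of all tested genes. At an unadjusted p under 0.05 there were 2, against 15.6% of all tested genes. Their median log2 change was 0.07 and their median SD 0.24 over the 24. Map2k1, a kinase of the MAP kinase cascade, had a log2 change of 0.38 (adjusted p = 0.181 by limma), and Rps6ka3, a ribosomal S6 kinase, had -0.34 (adjusted p = 0.336 by limma). Serum response factor, Srf, added here as the factor of the CArG box and outside the rule for named genes, had 0.25 (adjusted p = 0.503 by limma).

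Lists of other stress responses gave 0 called members as well, against 0.877% of all tested genes. Heat shock and handling stress genes (12 of 12 tested) had a median log2 change of 0.04, hypoxia response genes (12 of 12) 0.08, p53 targets (10 of 10) 0.07, Myc partners and targets (14 of 14) 0.04 and glucocorticoid response genes (10 of 10) 0.21. At an unadjusted p under 0.05 they held 1, 2, 0, 0 and 1 genes, against 15.6% of all tested genes. Atf4, a factor of the integrated stress response, had a log2 change of -0.48 (adjusted p = 0.278 by limma), Egln3, a prolyl hydroxylase induced in hypoxia, 0.59 (adjusted p = 0.168), and Per1, a clock gene that glucocorticoids induce, 0.88 (adjusted p = 0.637). Per1 was dim, well above background on 3 high-fat and 2 control arrays, its change was 0.14 after normexp, and its 2 probes differed in sign. The glucocorticoid response gene with an unadjusted p under 0.05 was Lcn2, an iron-carrier binding protein, with 0.39 (adjusted p = 0.238 by limma), whose 2 probes also differed in sign. Median SDs ran from 0.23 for Myc partners and targets to 0.52 for glucocorticoid response genes.

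The array means of 2 of these lists can be set beside those of the members. Glucocorticoid response genes averaged -0.07, 0.42, 0.29 and 1.23 in high-fat replicates 1 to 4 and 0.60, 0.35, -0.27 and 0.26 in control replicates 1 to 4. Their highest array was high-fat replicate 4 and their lowest control replicate 3, which in their groups had the lowest and the highest mean of the immediate early genes. Heat shock and handling stress genes averaged -0.11, 0.40, 0.07 and 0.58 in high-fat and 0.07, 0.30, 0.02 and 0.43 in control replicates. Here high-fat replicate 1 was the lowest and high-fat replicate 4 the highest array. Such extremes were not particular to these lists. Myc partners and targets were also lowest in high-fat replicate 1, at -1.23, and highest in high-fat replicate 4, at -0.92. Hypoxia response genes were highest in high-fat replicate 4 too, at -2.15, and lowest in control replicate 2. The p53 targets were highest in control replicate 3, at -0.77.

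The pattern of the members over the arrays was summarised as the mean deviation from the group means. Pearson's correlation with it over the 8 arrays is given as a description only, since all points share their hybridisations. It had a median of 0.28 over other immediate early genes and -0.02 over all tested genes. The median was -0.38 over heat shock and handling stress genes and -0.49 over glucocorticoid response genes. The correlation was above 0.5 for 13 of 43 other immediate early genes (30.2%), for 1 of 12 heat shock and handling stress genes (8.33%) and for 14.0% of all tested genes. The share was higher for markers of other cells, with 4 of 9 endothelial and stellate cell markers (44.4%) and 4 of 11 leukocyte and Kupffer cell markers (36.4%). The part of these cells in the pattern was not tested. It was above 0.5 for 2 of 10 p53 targets, 4 of 24 upstream genes, 1 of 12 hypoxia response genes and 0 of the hepatocyte and erythroid markers and Myc partners and targets. Outside the lists, the named genes most like it were Slc7a8, an amino acid transporter (r = 0.991), Fabp2, a fatty acid binding protein (r = 0.980), Rcor3 (r = 0.974), Clptm1l (r = 0.973), Or7c70 (r = 0.972) and Fat1 (r = 0.970). They are the highest of 18534 genes over only 8 arrays, and none of them passed the test between diets.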

How the data were processed

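Sample titles gave the group and number of each array. Agilent Feature Extraction 10.7.3.1 produced the intensity values, with spatial and multiplicative detrending switched on, per the file headers. The authors' deposited value table, an alternative here, holds log2 values whose scaling is not given in the sources used here. Each column correlated at 0.999 or more with the scanner values after scaling by an array percentile (75th) over every non-control probe, higher values were brighter spots, and no centring per probe was seen. Medians by column were -3.14, -3.20, -3.16 and -3.20 in high-fat and -3.10, -3.21, -3.14 and -3.17 in control replicates 1 to 4.

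Control spots and flagged outlier spots were left out, and 0 non-control spots were saturated. The log2 processed signal was set relative to the array's 75th percentile over those probes that all 8 arrays detected well above background (47.9% of probes), and spots of a probe were averaged. The fit (limma 3.58.1, R 4.3.3, functions lmFit and eBayes) took the probes that 4 or more arrays detected well above background, and was tested on simulated data. The number of arrays limits the precision. Accessions of 78.5% of probes matched GRCr8 RefSeq names, used for the other gene lists. Promoters are RefSeq's and probe positions are those of the files. Of the 4 same-numbered pairs, deviations correlated at -0.125, 0.299, 0.260 and 0.00643, so the numbers were not taken as pairs.

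The members and lists were chosen with earlier results of these data known. Named genes were the members, called members of other lists, otherwise up to 4 with the smallest p, and 6 genes like the members in pattern, of which the text names some. A few upstream genes are not reported here. Alternatives changed the background correction, scaling, filter, probe summary, variance model, blocks and arrays used. Leaving out both dimmest arrays, and the test of diet by slide row, were added after the data were seen.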

Additional observations from a re-analysis of the deposited data

Results flagged for a closer look

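In 38 groups of 4 values, those of the tested member probes, the Fosb probe, the mean of the members and the share of probes above background, 1 sample stood far from the other 3, where chance gives about 1 in 20. The second Myc probe read -7.29 in high-fat replicate 1, against -5.84 to -5.58 in the other high-fat arrays. On that array it was not well above background, so the value is only a bound and the size of the gap was not measured.

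The second probes of Btg2 and Ier2 moved in opposite directions in the 2 slide rows, with no overlap between diets within either row. For Btg2 the high-fat minus control difference was 0.43 in the first row and -0.34 in the second (adjusted p = 0.765 for the difference by limma). For Ier2 it was 0.77 and -0.37 (unadjusted p = 0.00949, adjusted p = 0.765 by limma). Neither difference passed. All the items named above were searched for such a split between rows. How many splits chance gives, with 2 arrays of each diet per row, was not worked out, so the 2 found are a description only.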

How the results depend on the processing

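The count of called members was 0 in the main setting and in each of the 21 alternatives in which it was computed, with smallest adjusted p values among the members of 0.203 to 0.525 by limma. Their median log2 change, 0.27, was 0.73 within the first slide row and -0.22 within the second, both without a test, and 0.13 to 0.44 when 1 array was left out. The median within-group SD, 0.75, was 0.58 to 0.78 when 1 array was left out, lowest without high-fat replicate 1, and 0.62 after normexp, against 0.22 over all genes there. Directions turned for 5 of the 9 members. Within the second slide row Jun (0.47) had -0.24, Ier2 (0.27) -0.22, Junb (0.04) -0.34 and Myc (-0.21) 0.27, and within the first Btg2 (-0.15) had 0.56. Myc had 0.21 with array weights, 0.35 without high-fat replicate 1 (-0.62 without high-fat replicate 2) and 0.55 without both dimmest arrays. Junb ran from -0.11 to 0.18 with 1 array left out, had -0.10 without high-fat replicate 1 and -0.01 without high-fat replicate 2, and -0.00667 without both dimmest arrays. Btg2 ran from -0.44 to 0.09 (0.0890 without control replicate 3), with 0.00668 without high-fat replicate 4. The causes were not tested. Fos was left with 0.36 without high-fat replicate 1 and was not tested among probes well above background on all arrays.

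The replicate block changed no call among the members (0 called) and lowered the count over all genes from 163 to 1. Other counts over all genes that differed by over 1.5 times from 163 were 253 after normexp, 331 for probes above background on all arrays, 335 with trend and robust eBayes, 98 with slide row as a block, 5 without the filter, 504 at an adjusted p under 0.1, 14 without both dimmest arrays and 16 to 89 with 1 array left out. Dim probes limit Fos, Arc, Egr2 and Per1 and the second probes of Egr1, Myc and Nr4a1, whose values lie near background on some arrays.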
